A study of Mus musculus with 4 samples.

Results

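The genes described are 10 that encode proteins of neutrophil granules and the abundant calcium-binding proteins of the neutrophil cytosol. They are Mpo, Elane and Prtn3 of azurophilic granules, Camp, Ngp, Ltf and Lcn2 of specific granules, Mmp9 of gelatinase granules, and S100a8 and S100a9 of the cytosol. They were taken by name, and all non-control probes whose RefSeq transcript belongs to one of them were used, which gave 12 probes on 21 spots per array out of 41174 different probes. All 10 genes passed the filter on dim probes and are among the 15524 genes tested. Their RNA was measured in whole pancreas of C57BL/6JNarl mouse embryos at E18.5, late in gestation, either Cyp11a1 knockout or wild type. Each of 4 two-colour arrays held 1 knockout extract in the red channel and 1 wild-type extract in the green channel, with no dye swap, and the labels call the arrays biological replicates. The sources used here give neither the kind of knockout allele nor the number of embryos per extract. Extract names share letter prefixes across arrays, whose meaning is not explained: BB in the knockout extracts of arrays 1 and 2, and BF in the wild-type extract of array 1 and both extracts of array 3. Arrays were treated as independent, and where extracts share a litter or other source they are not. Where the extracts do not come from separate embryos, p-values measure only the spread between these samples.

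Cyp11a1 encodes the mitochondrial enzyme that starts steroid hormone synthesis from cholesterol. Neutrophils make their granules in a fixed sequence while they mature: azurophilic granules with peroxidase and serine proteases come first, specific granules with iron-binding and antimicrobial proteins next, and gelatinase granules last. C/EBP transcription factors, among them C/EBP epsilon, drive the genes of specific granules, and PU.1 acts early in the lineage. In late gestation granulocytes form mainly in the fetal liver and begin to do so in bone marrow and spleen, so that the pancreas holds them as blood cells, as cells within the tissue, or with adhering tissue. Some of the 10 genes are not limited to neutrophils, since Lcn2 and Camp are also made by epithelial cells and Mmp9 by several other cell types.

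Spots had a median signal of 304 to 467 for knockout and 163 to 224 for wild type, with 78.2% to 85.1% well above background. The targeted gene, Cyp11a1, averaged -0.16 ± 0.070 (log2 ratio, SE, n = 4 arrays, limma adjusted p = 0.164). The position of its probe within the gene was not used here, so this value checks nothing about the deletion. Embryo sex was not balanced between the channels, as Xist, made from the inactive X chromosome of females, had log2 ratios of -3.91, -0.28, -4.22 and 3.46 on arrays 1 to 4. The part of sex in the values below was not tested. Acinar and islet genes such as Cpa1 and Ins1 were measured on all 4 arrays. Of 20 listed neutrophil surface and oxidase genes, 16 passed the filter on dim probes, among them Cxcr2, Fpr1, Fpr2, Il1r2, Retnlg and Fcgr4. Those that did not included Csf3r, the receptor for granulocyte colony-stimulating factor (above background on 1 array for knockout and 1 for wild type), and Trem1 (0 for knockout and at most 1 for wild type). Ms4a3, a marker of granulocyte precursors from the list of other granule products, was above background on 0 arrays in either genotype, whereas Cd177 and Mmp8 from that list were tested. No probe was assigned to Ly6g here. In bulk tissue, fewer cells of a type and less RNA per cell cannot be told apart.

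Of the 10 granule protein genes, 1 was called at an adjusted p of 0.05, Camp, which fell in knockout pancreas. Over all genes tested, 14.6% were called, 9.45% higher and 5.11% lower. The other 9 genes did not pass, and 4 of the 10 had an unadjusted p under 0.05 (Camp, Mpo, Mmp9 and Prtn3), against 30.8% of all genes. The median log2 ratio of the 10 genes was 0.11, against 0.013 for all genes. This median hides values that ran in opposite directions on different arrays: S100a8, S100a9, Ngp and Ltf were higher in knockout on arrays 1, 3 and 4 and lower on array 2.

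**Figure D1:**
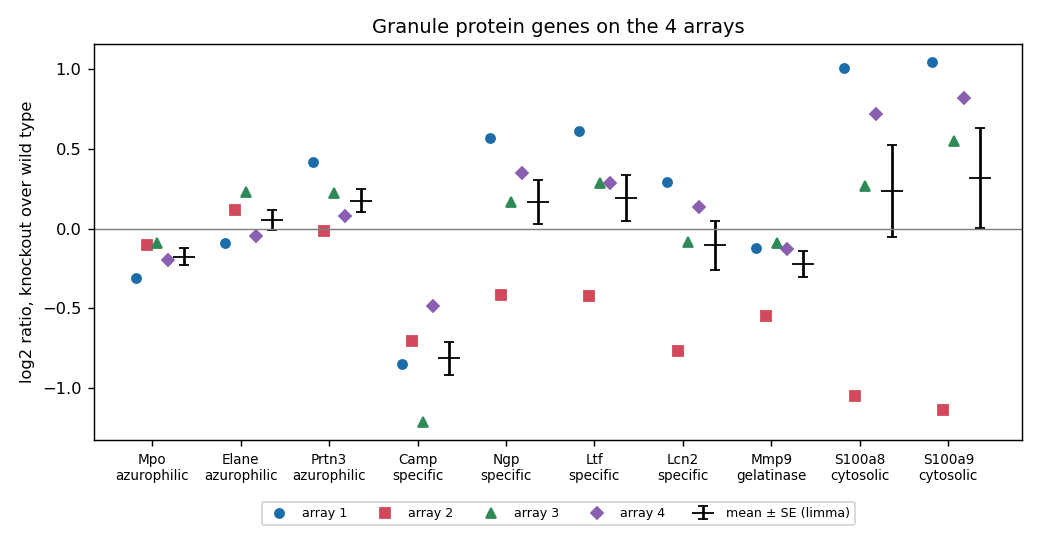
Log2 ratio of knockout over wild type (y axis) for the 10 granule protein genes (x axis, with the compartment of the protein). Coloured symbols are the 4 arrays and black bars the limma mean ± SE. Camp lies below 0 on all 4 arrays, whereas S100a8 and S100a9 lie between 0.27 and 1.04 on arrays 1, 3 and 4 and at -1.05 and -1.14 on array 2.

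Among the azurophilic genes, Mpo encodes the peroxidase that makes hypochlorous acid. Its log2 ratio was -0.31, -0.11, -0.090 and -0.20 on arrays 1 to 4. All 4 arrays lay below 0, with a mean of -0.17 ± 0.052 (SE, n = 4 arrays, limma adjusted p = 0.064), which did not pass. The log2 level of Mpo was 15.30, 15.33, 15.33 and 15.15 in the knockout extracts of arrays 1 to 4, against 15.61, 15.43, 15.42 and 15.34 in the wild-type extracts. The genotypes did not overlap in this level, and the separation was narrow, since the lowest wild-type and the highest knockout extract were 15.34 and 15.33.

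Elane, neutrophil elastase, had log2 ratios of -0.090, 0.12, 0.23 and -0.046, on both sides of 0. Its probe was dim, exceeding background clearly on 3 arrays for knockout and 2 for wild type, and the mean of 0.053 ± 0.062 did not pass (limma adjusted p = 0.609). Prtn3, proteinase 3, which lies next to Elane in the genome in a cluster of related serine proteases, had log2 ratios of 0.42, -0.017, 0.22 and 0.080. Its mean of 0.18 ± 0.073 did not pass either (limma adjusted p = 0.148). The probe of Prtn3 was dim as well, with signals of 94 to 132 for knockout and 65.5 to 86.5 for wild type. The 3 azurophilic genes thus had no common direction, but Elane and Prtn3 were dim, which limits the comparison with Mpo. The only probe of Mpo was far brighter, with signals of 52464.5 to 83959.4 for knockout and 25597.5 to 34665.2 for wild type. Whether that signal comes from neutrophil Mpo RNA alone was not tested.

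Camp encodes the cathelicidin antimicrobial peptide. Its log2 ratio was -0.85, -0.70, -1.21 and -0.48 on arrays 1 to 4, a mean of -0.81 ± 0.10 (SE, n = 4 arrays, limma adjusted p = 0.0043, unadjusted 95% interval -1.05 to -0.57), or 0.570-fold. The log2 level was 10.95, 10.73, 10.25 and 10.72 in the knockout extracts, against 11.80, 11.43, 11.46 and 11.20 in the wild-type extracts. Every knockout extract was thus below every wild-type extract. Camp and Mpo were 2 of 10 genes whose genotypes did not overlap in level, against 8.48% of all genes.

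The fall in Camp is relative to the other genes on each array. Before normalization the median spot signal of Camp was 2567, 2203, 2506 and 2258 in the knockout channel and 1942, 1741, 1890 and 1974 in the wild-type channel, higher in the red channel on each array, as were the spots of the array in general. Camp rests on 1 probe and 1 spot per array, and because knockout and red dye coincide, a dye effect particular to this probe cannot be told apart from genotype. In a fit of the single channels that left out the pairing on arrays, Camp had the same ratio and did not pass (limma adjusted p = 0.070). With median centring in place of loess it was at -0.40, and at -0.65 relative to the median of all genes, which that scaling set at 0.26, against 0.013 with loess.

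The other 3 specific granule genes behaved differently from Camp. Ngp encodes neutrophilic granule protein, a relative of the cathelicidins and cystatins in mouse, and had log2 ratios of 0.57, -0.41, 0.17 and 0.35, with a mean of 0.17 ± 0.14 (limma adjusted p = 0.450). Ltf, the iron-binding protein lactoferrin, had log2 ratios of 0.61, -0.42, 0.29 and 0.28, with a mean of 0.19 ± 0.14 (limma adjusted p = 0.402). The second probe of Ltf gave 0.87, -0.47, 0.34 and 0.19. Both probes of Ltf thus placed array 2 below 0 and the other arrays above it.

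Lcn2, lipocalin 2, which withholds iron from bacteria by binding their siderophores, had log2 ratios of 0.29, -0.77, -0.081 and 0.14. Its mean was -0.10 ± 0.15 (limma adjusted p = 0.688), and array 2 was again the lowest.

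Mmp9, gelatinase B, had log2 ratios of -0.12, -0.55, -0.090 and -0.13 on its brighter probe. The mean of -0.22 ± 0.080 did not pass (limma adjusted p = 0.107), and array 2 stood apart from the other arrays, which lay close together. The second probe of Mmp9, printed on 10 spots and much dimmer, gave 0.043, -0.049, 0.15 and 0.040. The probes of Mmp9 thus disagreed in sign on arrays 1, 3 and 4. Against 0, the directions of Mpo, Elane, Prtn3 and Mmp9 also depended on the scaling, since with median centring they were at 0.41, -0.47, -0.30 and 0.21. The median of all genes was then 0.26. Relative to it Mpo, Elane and Prtn3 were at 0.16, -0.73 and -0.55, and Mmp9 was at -0.047, the same direction as with loess.

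S100a8 and S100a9 encode the subunits of calprotectin, which binds calcium and zinc and is among the most abundant proteins of the neutrophil cytosol. S100a8 had log2 ratios of 1.01, -1.05, 0.27 and 0.72, with a mean of 0.24 ± 0.29 (limma adjusted p = 0.620). S100a9 had log2 ratios of 1.04, -1.14, 0.55 and 0.82, with a mean of 0.32 ± 0.31 (limma adjusted p = 0.532). The SD of these ratios between arrays was 0.91 for S100a8 and 0.99 for S100a9, against a median SD of 0.10 over all genes, and 0.245% and 0.187% of genes had a larger SD. The unadjusted 95% interval ran from -0.43 to 0.90 for S100a8 and from -0.41 to 1.05 for S100a9, and both intervals included 0.

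Without array 2, 5 of the 10 genes passed: S100a8 was then at 0.66 (limma adjusted p = 0.026), S100a9 at 0.80 (limma adjusted p = 0.0061), Ngp at 0.36 (limma adjusted p = 0.037) and Ltf at 0.39 (limma adjusted p = 0.026), beside Camp. Of all 15566 genes tested without array 2, 1628 passed. S100a8, S100a9, Ngp and Ltf vary together over the extracts, so they are not separate cases. Lcn2 was at 0.12 without array 2 and did not pass. Without array 1, 3 or 4, 1 of the 10 genes passed in each case, beside 1121, 1004 and 1054 of all genes. The values also moved without array 1, where S100a8 was at -0.022, S100a9 at 0.077, Ngp at 0.034 and Ltf at 0.051, and none of these 4 passed. Mmp9 was at -0.11 without array 2. Array 2 was the lowest of the 4 arrays for 7 of the 10 genes, against 30.1% of all genes with values on all arrays.

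The levels in single extracts show where array 2 departed. The log2 level of S100a8 was 10.64, 10.22, 10.01 and 9.28 in the knockout extracts of arrays 1 to 4, against 9.63, 11.26, 9.74 and 8.56 in the wild-type extracts. The wild-type extract of array 2 had the highest level of all 8 and the wild-type extract of array 4 the lowest. The wild-type extracts spanned 6.51-fold and the knockout extracts 2.57-fold, whereas the mean ratio between genotypes was 1.18-fold.

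For S100a9 the log2 level was 11.62, 10.34, 10.80 and 9.81 in the knockout extracts, against 10.57, 11.48, 10.25 and 8.99 in the wild-type extracts. Here the knockout extract of array 1 was highest, closely followed by the wild-type extract of array 2. The span was 3.51-fold among knockout and 5.62-fold among wild-type extracts, and the genotypes overlapped.

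Ngp had a log2 level of 9.02, 8.69, 8.67 and 8.22 in the knockout extracts, against 8.45, 9.11, 8.50 and 7.87 in the wild-type extracts. Ltf had 8.59, 8.03, 8.04 and 7.68 in the knockout extracts, against 7.98, 8.45, 7.76 and 7.39 in the wild-type extracts. Lcn2 had 7.81, 7.44, 7.49 and 7.08 in the knockout extracts, against 7.51, 8.20, 7.57 and 6.95 in the wild-type extracts. In all 5 of these genes (S100a8, S100a9, Ngp, Ltf and Lcn2) the highest knockout extract was that of array 1, the lowest knockout extract that of array 4, the highest wild-type extract that of array 2 and the lowest wild-type extract that of array 4. Over all genes, 29.3% had the knockout extract of array 1 highest among knockouts. The wild-type extract of array 2 was highest among wild types in 22.9%, and that of array 4 lowest of all extracts in 18.3%. The 5 genes vary together, so their order is not 5 separate cases.

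**Figure D2:**
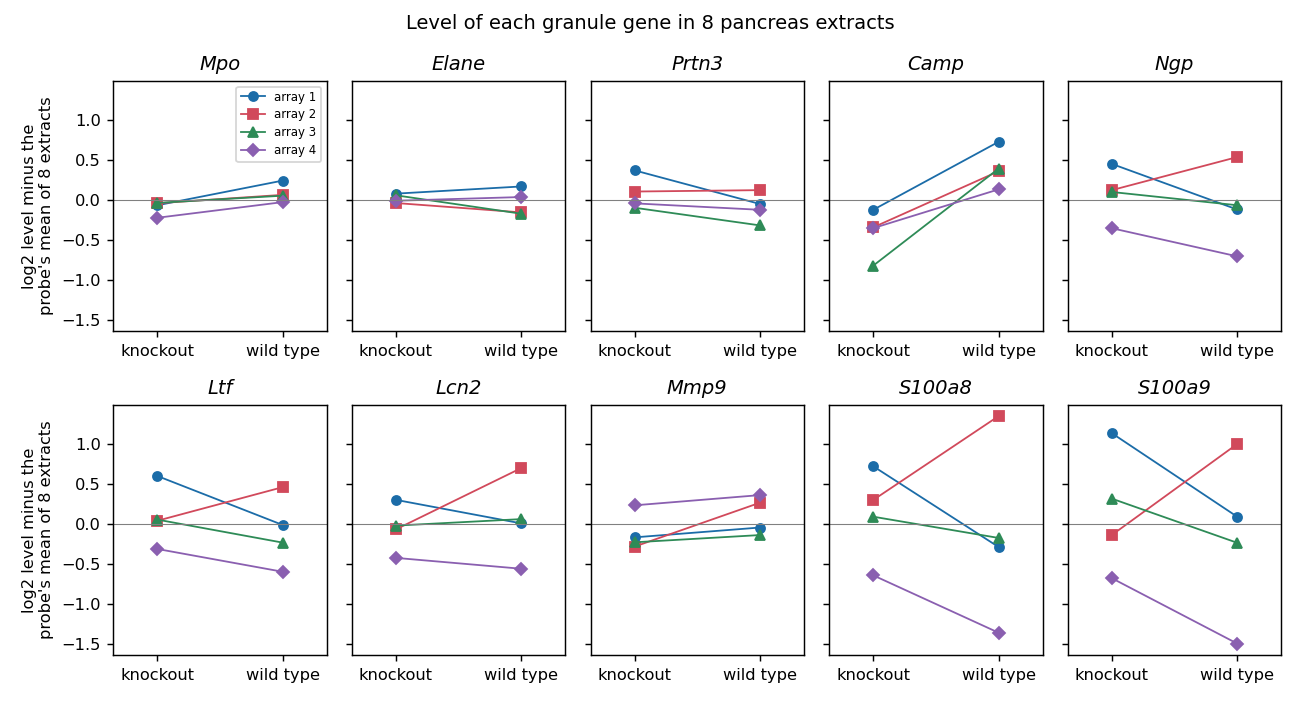
Log2 level of each granule gene in the knockout (left) and wild-type (right) extract of each array, minus the mean of the probe over 8 extracts (y axis). Lines join the extracts of 1 array. Camp falls towards the knockout side on all 4 arrays. In S100a8, S100a9, Ngp, Ltf and Lcn2 the line of array 2 crosses that of array 1 and stays above that of array 4.

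The likeness of these genes was not limited to the 10. When 14921 genes were ranked by Pearson's r with the mean of S100a8 and S100a9 over the 8 extracts, Ngp ranked 1 (r = 0.993), Ltf 8 (r = 0.971) and Lcn2 10 (r = 0.945). The 8 extracts share 4 arrays and the 4 extracts of a genotype share a dye, so r is a description. In all, 43 genes had r of 0.9 or more. Prtn3 ranked 1444 (r = 0.632), Mpo 6016 (r = 0.198), Camp 8149 (r = 0.00082), Elane 10147 (r = -0.189) and Mmp9 12050 (r = -0.378). Ngp, Ltf and Lcn2 thus stood among the 10 genes most like S100a8 and S100a9, and of the other 5 granule genes Prtn3 was the nearest.

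The most alike genes outside the 10 were Stfa3 (r = 0.990), Csta1 (r = 0.989), Stfa2l1 (r = 0.986), Csta2 (r = 0.977), Cstdc4 (r = 0.977), Stfa1 (r = 0.973), Cstdc5 (r = 0.966) and Cldn13 (r = 0.944). All but Cldn13, a claudin, belong to the stefin A family of cysteine protease inhibitors, a cluster of similar genes in mouse whose probes may share transcripts, so they are not separate measurements. Csta1 had log2 ratios of 0.77, -1.06, 0.33 and 0.72 on arrays 1 to 4, the same order of arrays as S100a8. Its mean of 0.19 ± 0.27 did not pass (limma adjusted p = 0.673), and adjusted p lay between 0.572 and 0.971 for all 8 genes. Without array 2 all 7 stefin genes passed, with values between 0.39 and 0.62, beside 1628 of all 15566 genes.

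**Figure D3:**
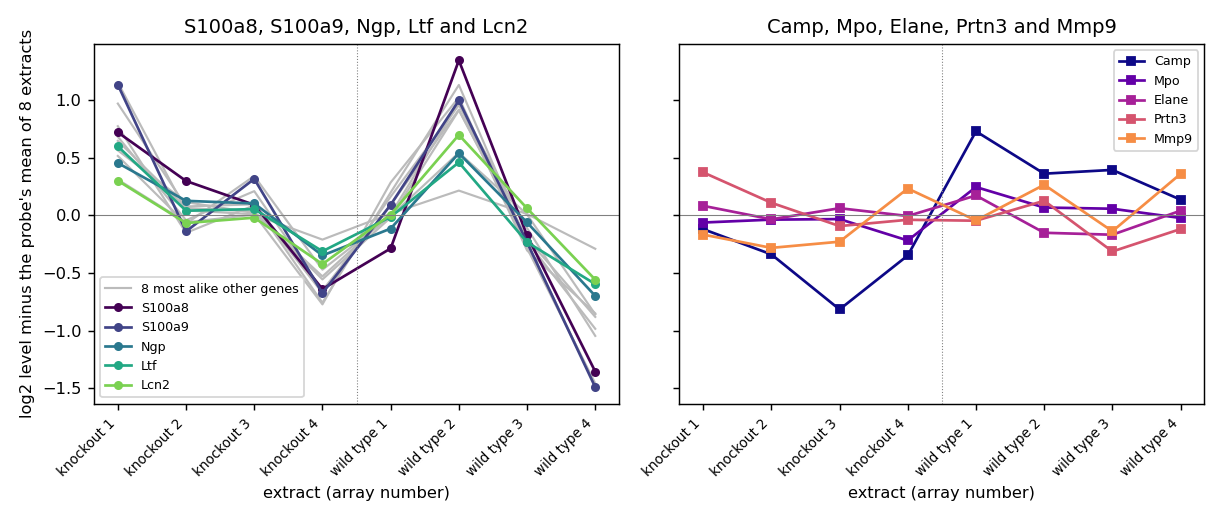
Log2 level minus the mean of the probe over 8 extracts (y axis) in the 4 knockout extracts and then the 4 wild-type extracts (x axis). Left, S100a8, S100a9, Ngp, Ltf and Lcn2 with the 8 most alike other genes in grey. Right, Camp, Mpo, Elane, Prtn3 and Mmp9. The left-hand genes share peaks in knockout extract 1 and wild-type extract 2, and on the right Camp steps up between the genotypes.

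**Figure D4:**
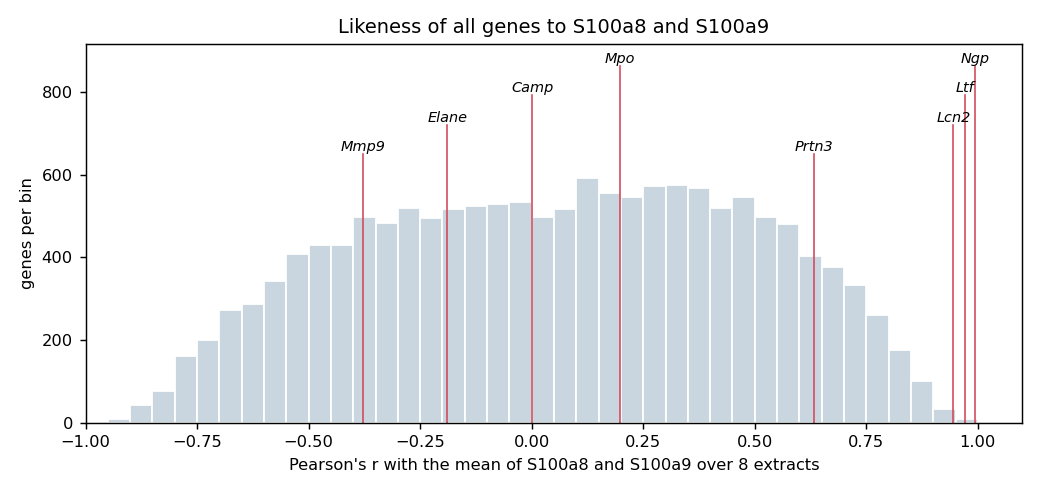
Number of genes (y axis) by Pearson's r with the mean of S100a8 and S100a9 over 8 extracts (x axis), for 14921 genes. Red lines mark the other 8 granule genes. Ngp, Ltf and Lcn2 stand at the right edge, from 0.945 to 0.993, and Camp stands near 0.

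The promoters of S100a8, S100a9 and the 3 granule genes most like them, and that of Camp, are shown because C/EBP and PU.1 are known to act on granule genes. They are the 250 bases before the annotated start from RefSeq (build GRCm38.p6), 5′ to 3′ on the strand of the gene. A promoter entry was matched for 9 of the 10 genes, all but Mmp9. Capitals mark matches on either strand to the C/EBP pattern TTNCNNAA or the PU.1 pattern GAGGAA.
S100a8 (chr3:90668821-90669070, plus strand): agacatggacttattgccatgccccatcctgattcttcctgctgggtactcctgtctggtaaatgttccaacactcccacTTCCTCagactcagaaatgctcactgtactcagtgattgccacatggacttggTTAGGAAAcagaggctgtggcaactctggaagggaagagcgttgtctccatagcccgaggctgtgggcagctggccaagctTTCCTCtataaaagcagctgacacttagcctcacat
S100a9 (chr3:90695722-90695971, minus strand): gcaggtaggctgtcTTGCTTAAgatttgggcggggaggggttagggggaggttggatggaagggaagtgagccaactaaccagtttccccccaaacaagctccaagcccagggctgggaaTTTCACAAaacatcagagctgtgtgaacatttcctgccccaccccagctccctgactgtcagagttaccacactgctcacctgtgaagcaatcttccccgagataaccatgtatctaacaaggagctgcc
Ngp (chr9:110419558-110419807, plus strand): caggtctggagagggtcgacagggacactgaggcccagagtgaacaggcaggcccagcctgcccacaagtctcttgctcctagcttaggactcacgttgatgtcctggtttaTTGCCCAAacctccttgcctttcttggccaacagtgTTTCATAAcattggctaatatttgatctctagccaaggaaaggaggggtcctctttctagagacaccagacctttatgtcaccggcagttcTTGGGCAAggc
Ltf (chr9:111019042-111019291, plus strand): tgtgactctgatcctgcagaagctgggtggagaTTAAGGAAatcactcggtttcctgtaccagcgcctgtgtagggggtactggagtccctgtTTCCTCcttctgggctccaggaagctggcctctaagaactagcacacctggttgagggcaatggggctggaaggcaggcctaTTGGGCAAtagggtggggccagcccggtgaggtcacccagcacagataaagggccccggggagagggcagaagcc
Lcn2 (chr2:32387740-32387989, minus strand): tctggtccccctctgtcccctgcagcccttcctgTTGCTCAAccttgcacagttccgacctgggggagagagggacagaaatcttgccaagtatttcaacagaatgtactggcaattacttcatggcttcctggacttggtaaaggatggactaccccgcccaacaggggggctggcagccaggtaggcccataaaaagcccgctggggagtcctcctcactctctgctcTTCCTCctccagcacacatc
Camp (chr9:109849457-109849706, minus strand): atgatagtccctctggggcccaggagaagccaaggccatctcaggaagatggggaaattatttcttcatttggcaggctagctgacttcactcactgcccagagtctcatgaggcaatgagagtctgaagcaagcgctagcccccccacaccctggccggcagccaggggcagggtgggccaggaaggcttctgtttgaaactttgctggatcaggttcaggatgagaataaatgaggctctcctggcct

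The C/EBP pattern was present in all 5 of the promoters of S100a8, S100a9, Ngp, Ltf and Lcn2, 3 times in Ngp, and in 0 of the 4 promoters of Camp, Mpo, Elane and Prtn3. Over the 9 promoters the C/EBP pattern was thus found in 5, against 36.8% of all 32851 promoter windows of that length. The promoters were grouped by levels seen in these same data, and a link between the pattern and these levels was not tested. The PU.1 pattern was found in 6 of the 9 promoters (Mpo, Elane, Prtn3, Ltf, Lcn2 and S100a8), against 23.3% of all windows. The glucocorticoid receptor half-site AGAACA, searched on both strands because the knockout concerns steroid synthesis, was found in 0 of 9, against 16.1% of all windows. The TATA box TATAAA was found in S100a8 alone, 30 bases before the start, against 12.4% of all windows with it on either strand. No 2 matches of these patterns overlapped in the 9 promoters. Such matches are letters in a window and not binding sites.

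Other granule products showed little common change. The list calls that follow rest on the pairing of extracts on arrays, since 1 of 20 passed in the fit of single channels without it. For the lists, values with median centring are given against 0, whereas the median of all genes was then 0.26. The stefin genes Stfa2l1 and Stfa3, described above, are on this list too. Of 21 listed genes 19 were tested, of which 2 rose, 1 fell and 16 did not pass (14.6% of all genes were called), and the median log2 ratio was 0.021. Serpinb1a, an inhibitor that protects the neutrophil from its own elastase and proteinase 3, rose by 0.53 ± 0.054 (limma adjusted p = 0.0022), and was higher on all 4 arrays. Serpinb1a is also made outside neutrophils, and it did not follow array 2, at 0.37, 0.58, 0.54 and 0.62. Under median centring it was at 0.98. Cyba, the small membrane subunit of the NADPH oxidase, rose by 0.33 ± 0.053 (limma adjusted p = 0.0086), and by 0.71 with median centring.

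Hp, haptoglobin, which specific granules hold and the liver secretes, fell by 0.56 ± 0.10 (limma adjusted p = 0.015), at -0.31, -0.98, -0.35 and -0.60. It was lower on all 4 arrays, lowest on array 2, and at -0.33 with median centring. Pglyrp1, a granule protein that binds bacterial peptidoglycan, was at -0.23 ± 0.064 and did not pass (limma adjusted p = 0.053).

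Of 20 surface receptors and oxidase subunits 16 were tested, of which 0 rose, 1 fell and 15 did not pass, with a median of -0.090. The gene that fell was Cxcr2, the chemokine receptor that draws neutrophils into tissue, at -0.67, -0.56 and -0.70 on arrays 1, 2 and 4 (mean -0.64 ± 0.057, n = 3 arrays, limma adjusted p = 0.0022). Its other tested probe gave -0.15 ± 0.070 and did not pass, so the probes of Cxcr2 differ in size. With median centring Cxcr2 was at -0.18 and still passed (limma adjusted p = 0.031). Itgb2, the beta chain of leukocyte integrins, was at -0.31 ± 0.086 (limma adjusted p = 0.054) and Ncf1 at -0.10 ± 0.046 (limma adjusted p = 0.175). Padi4 was at -0.14 ± 0.044 on its brightest probe (limma adjusted p = 0.075) and at 0.10 and 0.15 on its other tested probes, so its direction is not settled.

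Of 12 transcription factors of the lineage 11 were tested, of which 1 rose and 0 fell (median -0.020). No probe was assigned here to Cebpe, the gene of C/EBP epsilon, so it was not measured. Myb, which acts in blood cell progenitors, rose by 0.44 ± 0.088 (n = 3 arrays, limma adjusted p = 0.023), but its other tested probe gave 0.093 and the mean of both probes, 0.22, did not pass (limma adjusted p = 0.054). Without array 1 or 3 Myb did not pass either (limma adjusted p = 0.101 and 0.088). Cebpd was at -0.22 ± 0.061 (limma adjusted p = 0.051), Lef1 at -0.19 ± 0.052 (limma adjusted p = 0.051) and Ets1 at -0.10 ± 0.056 (limma adjusted p = 0.260).

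Of 15 recruiting signals 6 were tested, and Ccl2, a chemokine that draws monocytes more than neutrophils, fell by 0.52 ± 0.085 (limma adjusted p = 0.0093). Relative to 0 with median centring Ccl2 did not pass (-0.036), while the median of all genes was then 0.26. Cxcl12 was at -0.14 ± 0.047 (limma adjusted p = 0.092), Csf2 at 0.086 ± 0.045 and Tnf at 0.047 ± 0.047, none past the threshold. The probes of Cxcl2, Cxcl3, Cxcl5 and Il17a were well above background on 0 arrays in either genotype. In contrast, the probe of Cxcl1, a neutrophil chemoattractant, and 1 of the probes of Il1a were well above background on 4 of 4 arrays in both genotypes, and were not tested because fewer than 3 arrays kept a value.

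Among inhibitors and receptors of granule proteins, 13 of 16 were tested, of which 1 rose (Serpinb1a) and 3 fell (median -0.11). Timp3, an inhibitor of metalloproteinases, fell by 0.42 ± 0.055 (limma adjusted p = 0.0045), and Reck, a membrane inhibitor of Mmp9, fell by 0.24 ± 0.046 (limma adjusted p = 0.017). With median centring Timp3 and Reck were at -0.038 and -0.020 and did not pass against 0. Both still lay below the median of all genes, then 0.26. Reck did not pass without array 1 or 3 (limma adjusted p = 0.054 and 0.065). Slc22a17, a receptor for lipocalin 2, was lower at -0.31 ± 0.057 with loess (limma adjusted p = 0.014) but at 0.25 with median centring, close to that median. The other tested probe of Slc22a17 gave -0.062.

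Of 13 acute phase genes, a set that rises together with Lcn2 in inflammation, 10 were tested, of which 0 rose and 2 fell (median -0.066). Besides Hp, Nfkbiz, a regulator needed for Lcn2 induction, was lower at -0.23 ± 0.056 with loess (limma adjusted p = 0.033). With median centring Nfkbiz was at 0.0064, still below the median of all genes, then 0.26. It did not pass without array 1, 2 or 4 (limma adjusted p between 0.052 and 0.128).

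The low ratio on array 2 was shared by many markers of other leukocytes. Array 2 was the lowest for 7 of 9 eosinophil, basophil and mast cell genes and 5 of 8 lymphocyte genes, against 30.1% of all genes. Of 13 macrophage genes 1 rose and 3 fell (median -0.11), and array 2 was the lowest for 12 of 13. C1qa rose by 0.48 ± 0.065 (limma adjusted p = 0.0047), whereas the resident macrophage genes Lyve1 and Cd163 fell by 0.53 ± 0.073 (limma adjusted p = 0.0049) and 0.46 ± 0.073 (limma adjusted p = 0.0081). C1qb and C1qc, the other chains of C1q, were at -0.086 ± 0.075 and -0.16 ± 0.081 and did not pass (limma adjusted p = 0.478 and 0.235). The chains of C1q thus had no common direction. With median centring C1qa was at 0.90, Lyve1 at -0.31 and Cd163 at -0.80, and Cd163 was at -1.18 with processed signals and -1.17 with the log ratio column. The monocyte gene Ly6c2 was lower at -0.23 ± 0.061 with loess (limma adjusted p = 0.044) but at 0.13 with median centring, where the median of all genes was 0.26. It did not pass without array 2, 3 or 4 (limma adjusted p between 0.107 and 0.128). The summed level of the 13 genes was 12237 to 14889 in knockout extracts and 13118 to 13734 in wild-type extracts, in normalised intensity units.

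Of 9 eosinophil, basophil and mast cell genes 0 were called and 1 had an unadjusted p under 0.05 in limma, Prg2, at 0.28 ± 0.10 (limma adjusted p = 0.109). The mast cell chymase Cma1 had log2 ratios of 0.83, -0.61, 0.81 and -0.096, so that array 2 was lowest as in S100a8 but array 4 was not high. The summed level of these 9 genes was 3697 to 4737 in knockout extracts and 2882 to 5462 in wild-type extracts. The medians of the list were 0.33, -0.26, 0.21 and -0.055 on arrays 1 to 4.

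Hepatocyte and red cell genes followed another order of arrays. The medians of the hepatocyte list were 1.82, 0.59, -0.42 and 0.37 on arrays 1 to 4, and those of red cell and platelet genes 0.44, -0.035, -0.39 and 0.27, with array 3 lowest in both. Of 8 hepatocyte genes 0 were called by limma (2 had an unadjusted p under 0.05), and Afp was at 1.16 ± 0.67 (limma adjusted p = 0.280). Their summed level over 6 genes was 5428 to 16952 in knockout extracts and 4288 to 8366 in wild-type extracts. Of 10 red cell and platelet genes 0 rose and 2 fell, the platelet genes Pf4, by 0.52 ± 0.094 (limma adjusted p = 0.013; -0.18 with median centring, not past the threshold), and Itga2b, lower at -0.19 ± 0.045 with loess (limma adjusted p = 0.030) but at 0.35 with median centring. Itga2b did not pass without any 1 of the arrays (limma adjusted p between 0.071 and 0.090), nor did Pf4 without array 1 (limma adjusted p = 0.055). The summed level of these 10 genes was 130349 to 188826 in knockout extracts and 87929 to 171189 in wild-type extracts. The part of these cell types in the granule gene values was not tested.

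Of 8 lymphocyte genes 0 were called by limma and 1 had an unadjusted p under 0.05, Cd4, at -0.20 ± 0.058 (limma adjusted p = 0.058). Of 4 spleen genes 2 were tested, Spic at -0.070 ± 0.048 (limma adjusted p = 0.364) and Nkx2-5 at -0.12 ± 0.087 (limma adjusted p = 0.382). The median of these 2 spleen genes was -0.30 on array 2, the lowest of the arrays. The probe of Tlx1, also on the spleen list, was well above background on 4 of 4 arrays in both genotypes. Tlx1 was not tested because fewer than 3 arrays kept a value. Of 12 acinar and islet genes 2 rose and 2 fell, with medians of -0.17, 0.16, -0.031 and 0.20 on arrays 1 to 4. Array 2 was the lowest for 1 of these 12. Cel and Cpa1 rose by 0.66 and 0.62 with loess and were at 1.30 and 1.26 with median centring. In contrast, Cela1 and Cpb1 fell by 0.69 and 0.78 with loess. With median centring they were at -0.080 and -0.20, where neither passed against 0 and the median of all genes was 0.26. Cpb1 did not pass without array 1 either (limma adjusted p = 0.056). Nor did Cpb1 pass with scaling between arrays, processed signals or the log ratio column (limma adjusted p = 0.060, 0.065 and 0.065). With eBayes trend and robust neither Cpb1 nor Cela1 passed (limma adjusted p = 0.144 and 0.063).

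**Figure D5:**
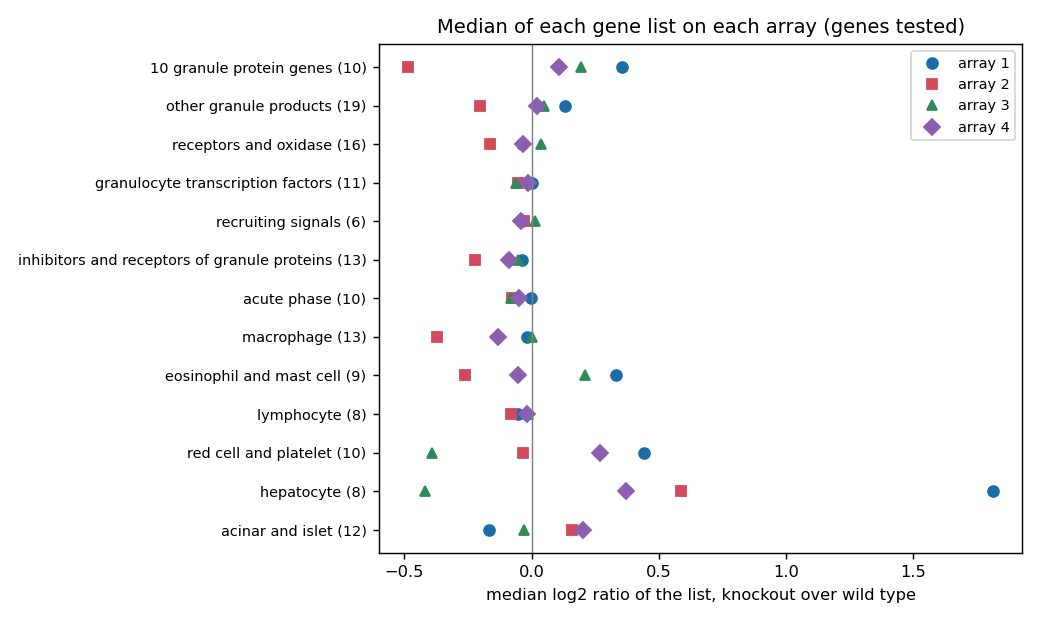
Median log2 ratio of knockout over wild type (x axis) of each gene list (y axis, number of genes tested in brackets) on each array. Array 2 is the lowest for the granule protein genes (-0.48), other granule products (-0.20), macrophage genes (-0.37) and eosinophil and mast cell genes (-0.26), and likewise for inhibitors and receptors (-0.22), surface and oxidase genes (-0.17) and lymphocyte genes (-0.082). Array 3 is the lowest for hepatocyte and red cell genes.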

How the data were processed

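Spot values were made by the authors with Agilent Feature Extraction (version 10.5.1.1 in the submitters' processing notes). The deposited files hold, per the file headers, for each spot a median signal and local background as intensity for each dye, processed signals, a log10 ratio of red over green, a p-value of that ratio, which was not used, and flags. The array design names an older build, so no coordinate of it is given.

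Median signals were corrected with normexp (offset 50) and loess within arrays, giving control and non-uniform spots no weight, using limma 3.58.1 (R 4.3.3). The non-uniform spots (597 to 979 per array) were left out and spots of a probe averaged. No spot was saturated. Symbols came from RefSeq accessions of GRCm38.p6 (25097 of 41174 probes matched). A probe was tested if well above background, in at least 50% of its spots, on 3 arrays in either channel, with values on 3 arrays or more. The brightest probe stood for a gene, and 601 genes had 3 values. Log2 ratios of knockout over wild type were fitted against 0 with lmFit and eBayes, adjusted over all genes by Benjamini-Hochberg. Single-extract levels (log2 of the deposited intensities after loess) were scaled with Aquantile and are compared within a probe only, apart from the summed levels of lists. Those sums add different probes, so the brightest probes weigh most in them. The number of arrays limits the precision. The fit was tested on simulated data with independent genes, independent arrays and no dye effect. Dye effects, shared sources of extracts and genes that vary together were thus outside that test.

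The members and lists were chosen with earlier results of these data known. Named genes are the 10 members, called genes of the lists and up to 4 per list with the smallest p, the 8 genes most alike S100a8 and S100a9, and Cyp11a1. Genes named beyond this for signal or its absence (Csf3r, Trem1, Ms4a3, Ly6g, Cxcl1, Cxcl2, Cxcl3, Cxcl5, Il17a, Il1a, Fpr1, Fpr2, Il1r2, Retnlg, Fcgr4, Cd177, Mmp8), Ins1 and Xist were chosen after their values were seen. C1qb, C1qc, Tlx1 and Cebpe were also named with the results known. Alternatives were other backgrounds, signals, normalizations, filters, spot flags, probe rules and models, and leaving out each replicate.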

Additional observations from a re-analysis of the deposited data

Results flagged for a closer look

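In each of 7 genes, 1 array stood far from the other 3 by Dixon's test, out of 36 genes examined. Chance flags about 5% of such groups, and genes that vary together are not separate cases. Array 2 had a low ratio (log2, knockout over wild type) in Mmp9 (-0.55), Slc22a17 (-0.49), Stfa2l1 (-0.96), Csta2 (-0.86) and Cstdc5 (-0.62), and in Cyba it was 0.18, below the other arrays. In C1qa array 3 was high (0.71).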

How the results depend on the processing

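Camp kept its direction under all 16 alternatives, between -0.92 and -0.40, and passed in 15. When each array was centred on its median and loess left out (median centring), 11922 genes, 6 granule genes and 85 list genes passed, against 2260, 1 and 20 with loess, 79.4% of the genes being higher against 64.9%, and all genes had a median of 0.26. Against 0, Mpo was then at 0.41, Elane at -0.47, Prtn3 at -0.30, Mmp9 at 0.21, Slc22a17 at 0.25, Nfkbiz at 0.0064, Ly6c2 at 0.13, Itga2b at 0.35 and Cldn13 at -0.47, all opposite to loess. Relative to that median Camp was at -0.65, Mpo at 0.16, Elane at -0.73, Prtn3 at -0.55, Lcn2 at -0.50, Mmp9 at -0.047, Ltf at -0.062 (opposite to its 0.19 with loess), Ngp at 0.059, S100a8 at 0.30 and S100a9 at 0.43. Mmp9, Nfkbiz and Ly6c2 thus lay below that median, the same direction as with loess. Lcn2 turned to 0.010 with processed signals and to 0.019 with the log ratio column. Without the array as a block (no replicate block), 87 genes, 0 granule genes and 1 list gene passed, so that most calls rest on the pairing of extracts on an array. With eBayes trend and robust 2 granule genes passed, Mpo (adjusted p = 0.030) besides Camp. Leaving out 1 replicate gave 1004 to 1628 genes (1121 without replicate 1, 1004 without replicate 3, 1054 without replicate 4), 1 to 5 granule genes and 15 to 25 list genes. S100a8 then ranged from -0.022 to 0.66, S100a9 from 0.077 to 0.80, Ngp from 0.034 to 0.36, Ltf from 0.051 to 0.39, Mmp9 from -0.27 to -0.11, Lcn2 from -0.24 to 0.12, Elane from -0.0063 to 0.10, Stfa3 from -0.097 to 0.41, Stfa2l1 from -0.063 to 0.45, Csta2 from -0.071 to 0.40, Cstdc4 from -0.18 to 0.39, Stfa1 from -0.00022 to 0.62 and Cldn13 from -0.067 to 0.12. Elane has no value under the strict filter. The causes were not tested. Elane, Prtn3 and the second probe of Mmp9 are dim, which limits what their ratios can show.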
